A study of Homo sapiens with 12 samples.

Results

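The genes described here are 10 genes of the myeloid and monocyte programme, out of 18417 genes measured on the arrays: LYZ, MPO, ELANE, TYROBP, FCER1G, CD14, CSF1, CSF1R, SPI1 and CEBPA. They were taken by name from the array annotation, each is represented by 1 transcript cluster (the array's probe group for a gene), and all 10 were measured. Monocytes, macrophages and granulocytes arise in the bone marrow from shared progenitors, a path set largely by the transcription factors PU.1 (encoded by SPI1) and C/EBP alpha (CEBPA). The mature cells store antimicrobial proteins in granules, sense microbes through receptors such as CD14, signal through ITAM adaptors that recruit the kinase SYK, and depend on the cytokine CSF1 and its receptor CSF1R. K562, the line used here, comes from a chronic myeloid leukaemia and is known for an erythroid and megakaryocytic character.

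The data are Affymetrix expression arrays of 2 established human leukaemia lines, in 4 groups of 3 arrays. Treated KA was K562/ADR, the adriamycin-resistant subline, given decitabine at 5 nM for 72 hours, and untreated KA was the same subline without it. Treated KS was K562 given decitabine at the same dose and time, and untreated KS was K562 without it. Decitabine, a nucleoside analogue, is incorporated during DNA replication and captures the enzymes that methylate cytosine in CpG dinucleotides. KA, but not KS, was kept in 50 nM adriamycin, so the line and that drug cannot be told apart. What untreated cells were given is not stated in the labels, nor whether replicates were separate cultures, so p-values reflect only the variation among these arrays, which may be technical.

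Levels are log2 intensities, and changes are differences of log2 intensity with their standard error (SE). A gene is called, and said to have risen or fallen, at an adjusted p under 0.05 over all 18417 genes. Array medians lay between 4.96 and 5.01. A group whose mean did not pass 3.39, the largest lower quartile among the 12 arrays, was not shown to exceed background. Levels are not compared between genes, because each probe group has its own brightness. Of 13 measured erythroid and megakaryocyte markers, 0 lay at or below background in each group. The erythroid GATA1 averaged 8.89 to 9.14 and the embryonic globin HBE1 12.48 to 12.73 over the 4 groups. Of the platelet genes, ITGA2B averaged 5.29 to 7.52, while PF4 (3.62 to 3.73) and GP1BA (4.06 to 4.38) lay little above background. Of 21 measured genes from a list of monocyte and macrophage surface proteins, 10 lay at or below background in each group.

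Untreated KS replicate 3 was unlike its group. It lay above both other untreated KS arrays for 9 of the 10 genes, CSF1R being the exception. Its median over all transcript clusters was also the highest of its group, at 5.00 against 4.96 in replicate 1 and 4.98 in replicate 2. How often this array lay highest over all genes was not tested, so the count is not shown to be particular to the 10 genes. On the linear scale the position of this array was taken between the other untreated KS arrays and the treated KS mean. It lay 29.1% of the way to the treated mean for LYZ, 40.1% for TYROBP, 25.2% for CSF1 and 64.4% for SPI1. For genes not called with decitabine in KS the figure ran from -44.2% (CSF1R) to 150.6% (CD14). Results of the 10 genes that rest on untreated KS are therefore given with and without replicate 3 where they were called. Values without it are also given for some of the other genes. All groups share the same estimate of the spread in the fit. This array therefore also enters the SE and adjusted p of comparisons that do not use untreated KS.

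Lysozyme changed most of the 10. LYZ encodes the secreted enzyme that cleaves bacterial cell walls. It read 8.91, 8.93 and 9.09 on treated KA arrays, against 7.05, 7.15 and 7.42 on untreated KA arrays. In KS it read 11.06, 11.03 and 10.95 on treated arrays, against 7.77, 7.86 and 9.57 on untreated arrays. The treated and untreated arrays did not overlap in either line, and the order of group means was treated KS, treated KA, untreated KS, untreated KA. The 9.57 of untreated KS replicate 3 exceeded all 3 treated KA arrays.

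With decitabine LYZ rose 3.41-fold in KA (1.77 ± 0.34 SE, 95% interval of the fold 2.05 to 5.70, adjusted p = 0.00457). Leaving out untreated KS replicate 3 kept that change and made its SE 0.09 (2.96 to 3.94, adjusted p = 9.15e-07). In KS LYZ rose 6.10-fold (2.61 ± 0.34, 3.66 to 10.2, adjusted p = 8.93e-05), and 9.15-fold without untreated KS replicate 3 (3.19 ± 0.11, adjusted p = 4.94e-09). In these bulk samples, more cells with a transcript and more transcript per cell cannot be told apart. Untreated KA was 2.29-fold lower than untreated KS (-1.20 ± 0.34, adjusted p = 0.0196). Without untreated KS replicate 3 the difference was 1.53-fold (-0.61 ± 0.11, adjusted p = 0.00112), and the call was lost without untreated KA replicate 1 (-1.12, adjusted p = 0.0658) or 2 (-1.17, adjusted p = 0.0555). Treated KA was 4.10-fold lower than treated KS (-2.03 ± 0.34, adjusted p = 0.00056), with an SE of 0.09 without untreated KS replicate 3 (adjusted p = 2.22e-08). The difference between the responses, KA minus KS, was -0.84 ± 0.48 (95% interval -1.88 to 0.21, adjusted p = 0.328). Without untreated KS replicate 3 it was -1.42 ± 0.14 and was called (adjusted p = 0.000252), so the call on this difference rests on that array.

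**Figure D1:**
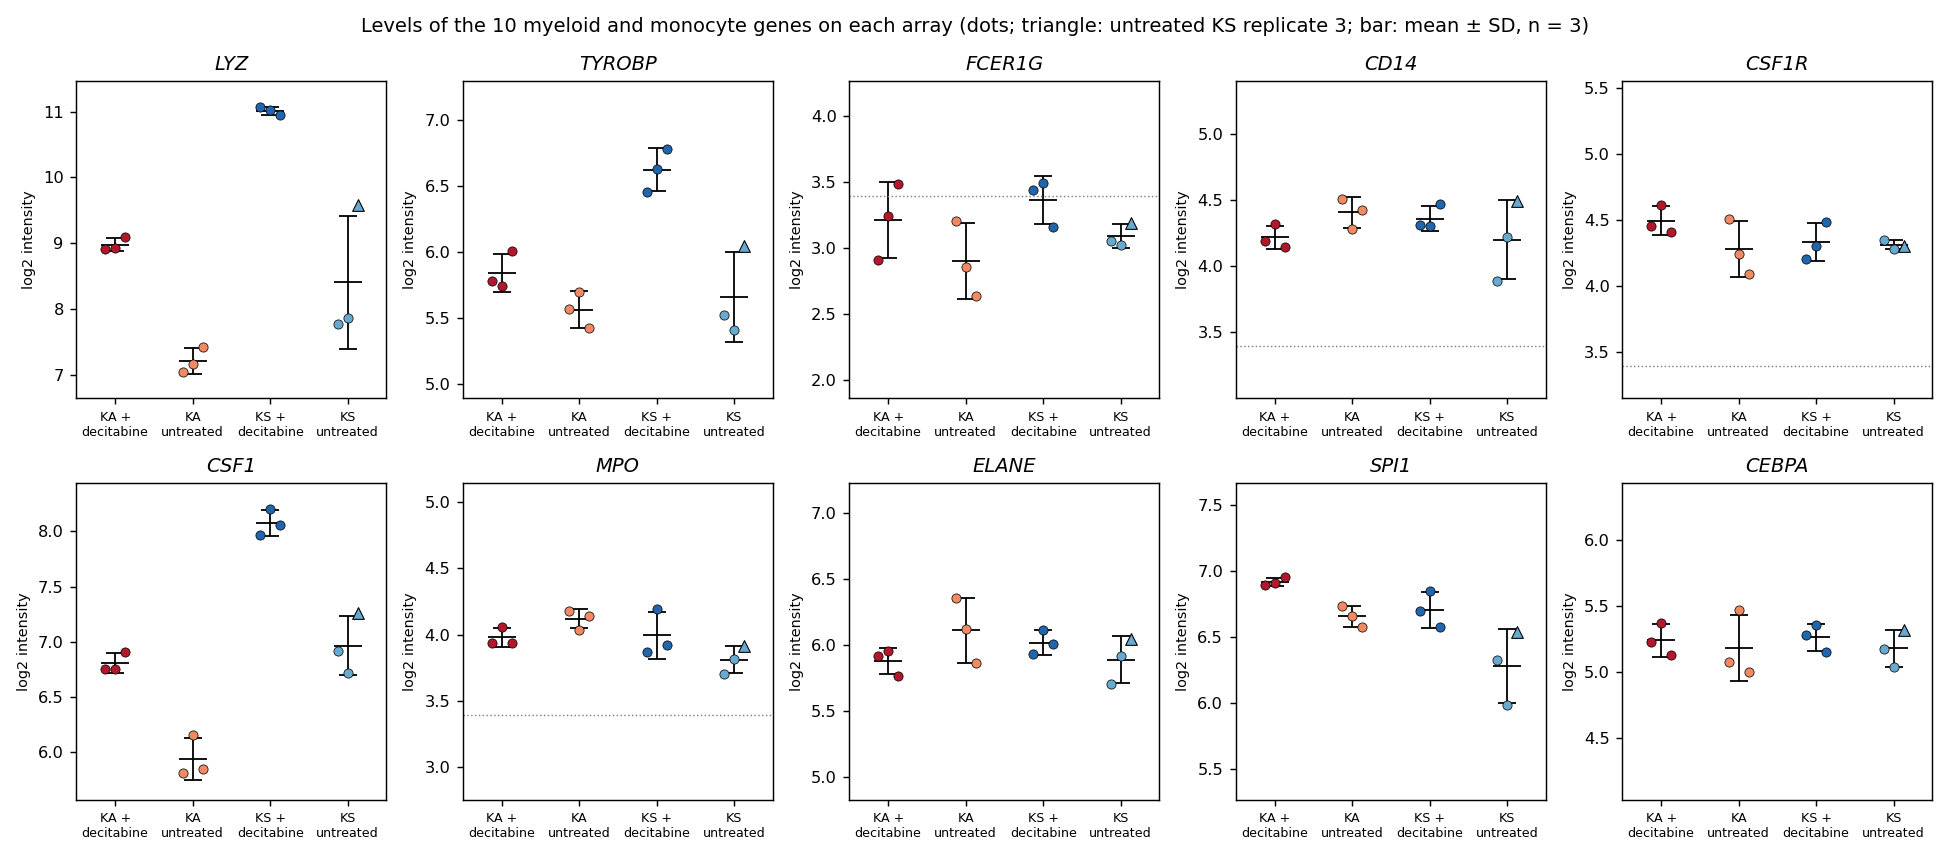
Log2 intensity of the 10 genes on each array (vertical axis) in the 4 groups (horizontal axis). Dots are arrays, the triangle is untreated KS replicate 3, black bars are the mean ± SD (n = 3) and the dotted line, where it falls within a panel, is the background level of 3.39. LYZ, TYROBP and CSF1 spread over 1 or more between group means, and the FCER1G group means lie below the background level.

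MPO and ELANE, the other granule proteins among the genes described here, did not follow LYZ. MPO encodes myeloperoxidase, which makes hypochlorous acid in neutrophil granules. It averaged 3.98 ± 0.07 in treated KA, 4.12 ± 0.07 in untreated KA, 3.99 ± 0.18 in treated KS and 3.81 ± 0.10 in untreated KS (SD, n = 3 each), a little above background. Each of these means lay under 4.43, the median untreated level of the markers of non-haematopoietic tissues. Untreated KA was 0.31 ± 0.09 higher than untreated KS (adjusted p = 0.0256), with no overlap between the arrays. That call was lost without untreated KA replicate 1 (0.28, adjusted p = 0.0882) or 3 (0.30, adjusted p = 0.0673), and without untreated KS replicate 1 (0.26, adjusted p = 0.106) or 2 (0.31, adjusted p = 0.0589). It was 0.36 ± 0.10 without untreated KS replicate 3 (adjusted p = 0.0196). Decitabine gave MPO changes of -0.14 in KA (95% interval -0.34 to 0.06) and 0.18 in KS (-0.02 to 0.38), neither called. ELANE encodes neutrophil elastase, a granule protease. It averaged 5.88 ± 0.10 in treated KA, 6.11 ± 0.25 in untreated KA, 6.02 ± 0.09 in treated KS and 5.89 ± 0.18 in untreated KS. With all arrays it was called in no comparison, and its change with decitabine was -0.24 in KA (-0.50 to 0.03) and 0.13 in KS (-0.14 to 0.39). The untreated lines differed by 0.22 (adjusted p = 0.215), and by 0.35 without untreated KA replicate 3, which was called (adjusted p = 0.0479).

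TYROBP encodes DAP12, a transmembrane adaptor with an ITAM that carries signals for receptors such as TREM2. It read 6.46, 6.63 and 6.78 on treated KS arrays, against 5.52, 5.41 and 6.05 on untreated KS arrays. In KA it read 5.78, 5.74 and 6.00 on treated arrays, against 5.56, 5.70 and 5.42 on untreated arrays. The groups did not overlap in either line, but the gap in KA was narrow. TYROBP rose 1.95-fold in KS (0.96 ± 0.15, 95% interval 1.56 to 2.44, adjusted p = 0.000307), and 2.23-fold without untreated KS replicate 3 (1.16 ± 0.12, adjusted p = 1.95e-05). In KA the change was 0.28 ± 0.15 (adjusted p = 0.248), or 0.28 ± 0.10 without untreated KS replicate 3 (adjusted p = 0.0963). Treated KA was 0.78 ± 0.15 lower than treated KS (adjusted p = 0.00143), whereas the untreated lines differed by -0.09 ± 0.15 (adjusted p = 0.702). The difference of responses, KA minus KS, was -0.69 ± 0.21 (adjusted p = 0.0715), and leaving out untreated KS replicate 3 made it -0.88 ± 0.16, which was called (adjusted p = 0.00583).

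FCER1G encodes the other ITAM adaptor, the common gamma chain of Fc receptors. Its group means were 3.21 ± 0.29 in treated KA, 2.90 ± 0.29 in untreated KA, 3.36 ± 0.18 in treated KS and 3.09 ± 0.09 in untreated KS. None was shown to exceed background and no comparison was called, so no fold is given.

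Promoter sequences of 5 of the 10 genes were at hand from RefSeq (GRCh38.p14), each covering 250 bases before and 50 after a transcription start. LYZ, CSF1, SPI1, MPO and ELANE had none at hand. TYROBP was thus the only gene called with decitabine that had a window. Since decitabine acts on the methylation of CpG, the windows of TYROBP, which rose in KS, of CD14, which has as many CpG and was not called, and of CEBPA, which is rich in CpG and was not called, are shown. They lie on the minus strand at chr19:35908246-35908545 (TYROBP), chr5:140633126-140633425 (CD14) and chr19:33302485-33302784 (CEBPA). They run 5′ to 3′ along the gene, with CG in capitals.
TYROBP: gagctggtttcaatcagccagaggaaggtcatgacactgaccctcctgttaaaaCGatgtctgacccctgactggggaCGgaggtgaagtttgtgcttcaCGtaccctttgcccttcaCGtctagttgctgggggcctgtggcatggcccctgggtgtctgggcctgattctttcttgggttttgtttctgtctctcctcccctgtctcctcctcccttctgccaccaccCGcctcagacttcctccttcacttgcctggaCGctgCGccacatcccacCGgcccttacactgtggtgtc
CD14: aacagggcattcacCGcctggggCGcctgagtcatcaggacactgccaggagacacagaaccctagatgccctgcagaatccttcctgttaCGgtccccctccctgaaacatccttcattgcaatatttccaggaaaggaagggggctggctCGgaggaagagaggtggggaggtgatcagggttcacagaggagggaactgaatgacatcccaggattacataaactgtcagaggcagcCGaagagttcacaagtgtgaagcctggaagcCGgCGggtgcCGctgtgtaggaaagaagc
CEBPA: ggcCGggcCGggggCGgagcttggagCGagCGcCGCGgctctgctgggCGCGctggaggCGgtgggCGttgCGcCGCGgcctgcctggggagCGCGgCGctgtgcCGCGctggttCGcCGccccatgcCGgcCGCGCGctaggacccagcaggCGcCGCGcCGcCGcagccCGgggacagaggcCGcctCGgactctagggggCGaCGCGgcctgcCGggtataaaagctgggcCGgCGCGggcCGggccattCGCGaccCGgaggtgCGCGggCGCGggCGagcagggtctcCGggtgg
The TYROBP and CD14 windows hold 8 CpG each and the CEBPA window 50, against a median of 14 over 35116 promoter windows. Fewer CpG than in the TYROBP and CD14 windows were found in 39.3% of all windows, and fewer than in CEBPA in 98.7%. FCER1G has 9, and the 2 windows of CSF1R have 8 and 4. The PU.1 core GAGGAA, searched on both strands, occurred 2 times in TYROBP, 1 time in CD14, 3 times in one CSF1R window and in 27.9% of all windows. The C/EBP motif TTNNGNAA, also on both strands, occurred 1 time each in CD14 and the same CSF1R window, and in 36.8% of all windows. Methylation was not measured here, and a match is not a shown binding site.

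CSF1 encodes macrophage colony-stimulating factor, which sustains monocytes and macrophages. It read 6.75, 6.76 and 6.91 on treated KA arrays, against 5.81, 6.16 and 5.85 on untreated KA arrays. In KS it read 7.97, 8.20 and 8.06 on treated arrays, against 6.92, 6.72 and 7.26 on untreated arrays. No pair of compared groups overlapped. CSF1 rose 1.83-fold with decitabine in KA (0.87 ± 0.13, adjusted p = 0.00103) and 2.16-fold in KS (1.11 ± 0.13, adjusted p = 4.04e-05). It was 2.04-fold lower in untreated KA than in untreated KS (-1.03 ± 0.13, adjusted p = 6.51e-05) and 2.41-fold lower in treated KA than in treated KS (-1.27 ± 0.13, adjusted p = 9.29e-06). These 4 calls held with any 1 array left out. Leaving out untreated KS replicate 3 gave a change in KS of 1.25 ± 0.12 (adjusted p = 1.07e-05) and a difference between untreated lines of -0.88 ± 0.12 (adjusted p = 0.000152). The difference of responses was -0.24 ± 0.18 (95% interval -0.64 to 0.16, adjusted p = 0.478).

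A change like that of CSF1 was not shown for its receptor, which read low. CSF1R, a tyrosine kinase of monocytes and macrophages, averaged 4.49 ± 0.11 in treated KA, 4.28 ± 0.21 in untreated KA, 4.33 ± 0.14 in treated KS and 4.31 ± 0.03 in untreated KS. Apart from treated KA, these means lay under 4.43, the median untreated level of the markers of non-haematopoietic tissues. CSF1R was called in no comparison, with a change on decitabine of 0.22 in KA (95% interval -0.02 to 0.45) and 0.02 in KS (-0.21 to 0.25). CD14, the monocyte coreceptor for bacterial lipopolysaccharide, averaged 4.22 ± 0.09 in treated KA, 4.41 ± 0.12 in untreated KA, 4.36 ± 0.10 in treated KS and 4.20 ± 0.30 in untreated KS. It was not called in any comparison with all arrays. The CD14 change with decitabine was -0.19 in KA (95% interval -0.46 to 0.08) and 0.16 in KS (-0.11 to 0.43). Without untreated KS replicate 3, CD14 was 0.35 ± 0.11 higher in untreated KA than in untreated KS (adjusted p = 0.0327). Its change with decitabine in KS was then 0.30 ± 0.11, with no overlap of arrays, and its difference of responses -0.49 ± 0.15. Neither was called (adjusted p = 0.0529 and 0.0517).

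SPI1 encodes PU.1. It read 6.89, 6.91 and 6.95 on treated KA arrays, against 6.73, 6.66 and 6.57 on untreated KA arrays. In KS it read 6.70, 6.84 and 6.57 on treated arrays, against 6.32, 5.98 and 6.54 on untreated arrays. Treated arrays lay above untreated arrays in both lines, by a small margin in KS. SPI1 rose 1.34-fold in KS (0.42 ± 0.12, adjusted p = 0.0154) and changed by 0.26 ± 0.12 in KA (adjusted p = 0.167). It was 0.37 ± 0.12 higher in untreated KA than in untreated KS (adjusted p = 0.0345), and 0.21 ± 0.12 higher in treated KA than in treated KS, which was not called (adjusted p = 0.228).

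Both SPI1 calls depended on single arrays. The KS response was lost without treated KS replicate 2 (0.35, adjusted p = 0.0677) or untreated KS replicate 2 (0.27, adjusted p = 0.0585), and was 0.55 ± 0.11 without untreated KS replicate 3 (adjusted p = 0.00198). The difference between the untreated lines was lost without untreated KA replicate 1 (adjusted p = 0.111) or 2 (adjusted p = 0.0832), and without untreated KS replicate 1 (adjusted p = 0.0647) or 2 (adjusted p = 0.132), and was 0.50 ± 0.11 without untreated KS replicate 3 (adjusted p = 0.00462). CEBPA, the other lineage factor, averaged 5.24 ± 0.12 in treated KA, 5.18 ± 0.25 in untreated KA, 5.27 ± 0.10 in treated KS and 5.18 ± 0.14 in untreated KS. It was called in no comparison. Its change with decitabine was 0.06 in KA (95% interval -0.20 to 0.32) and 0.09 in KS (-0.18 to 0.35).

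**Figure D2:**
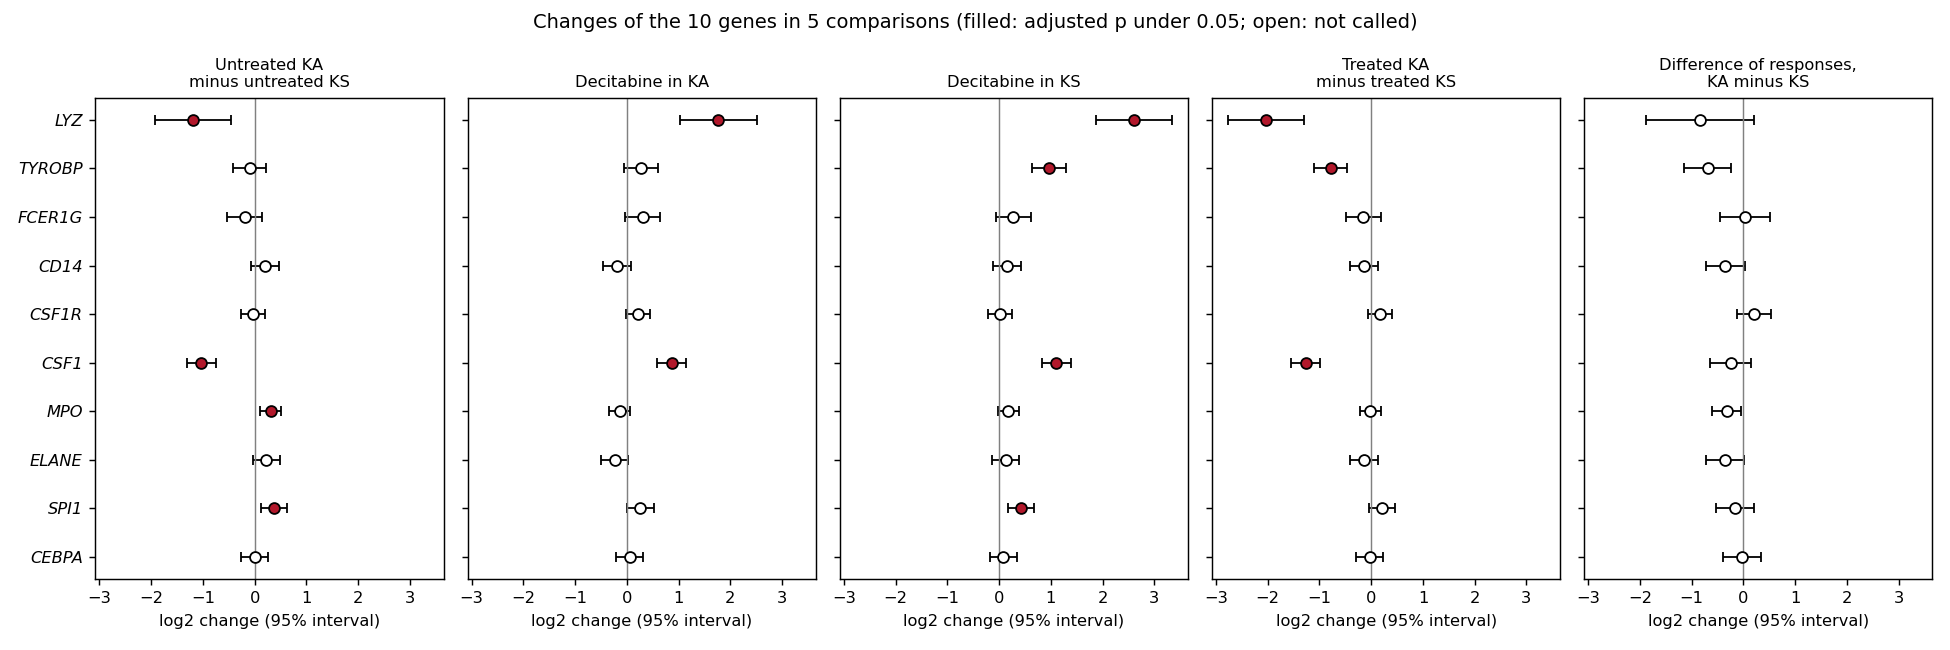
Log2 change of each of the 10 genes (horizontal axis, with 95% intervals) in the 5 comparisons. Filled points passed an adjusted p under 0.05 and open points did not. LYZ and CSF1 are filled in all 4 comparisons between groups, and no gene is filled in the difference of responses.

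Read as a list, the 10 genes were called in both directions between the untreated lines: MPO and SPI1 were higher in KA and LYZ and CSF1 lower, where 25.7% of all genes were called (11.6% higher, 14.1% lower). Decitabine raised 2 of the 10 in KA (LYZ and CSF1), where 9.66% of all genes were called higher and 4.96% lower. It raised 4 of the 10 in KS (LYZ, TYROBP, CSF1 and SPI1), where 14.6% of all genes were called higher and 15.7% lower. Between the treated lines 3 were lower in KA (LYZ, TYROBP and CSF1), where 27.0% of all genes were called (15.1% higher, 11.9% lower). For the difference of responses limma called 0 of 10, where 6.74% of all genes were called (4.6% higher, 2.14% lower), and 2 of the 10 (TYROBP and MPO) had an unadjusted p under 0.05. The median change of the 10 was 0.24 with decitabine in KA and 0.23 in KS, against -0.02 and -0.01 over all genes.

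Without untreated KS replicate 3 the counts were 3 higher and 2 lower between the untreated lines, still 2 and 4 higher with decitabine in KA and KS, and 2 lower (LYZ and TYROBP) in the difference of responses. The treated lines kept 3 lower. Over all genes 26.5% were then called between untreated lines, 16.4% with decitabine in KA, 31.4% in KS, 28.8% between treated lines and 11.1% in the difference of responses. Arrays of the compared groups did not overlap for 4 of the 10 genes in each of the 4 comparisons between groups. Over all genes that share was 38.4% between untreated lines, 35.9% for decitabine in KA, 40.0% for decitabine in KS and 41.5% between treated lines. With all arrays the other genes, FCER1G, CD14, CSF1R, ELANE and CEBPA (5 of 10), were called in none of the 5 comparisons, as were 51.1% of all genes.

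**Figure D3:**
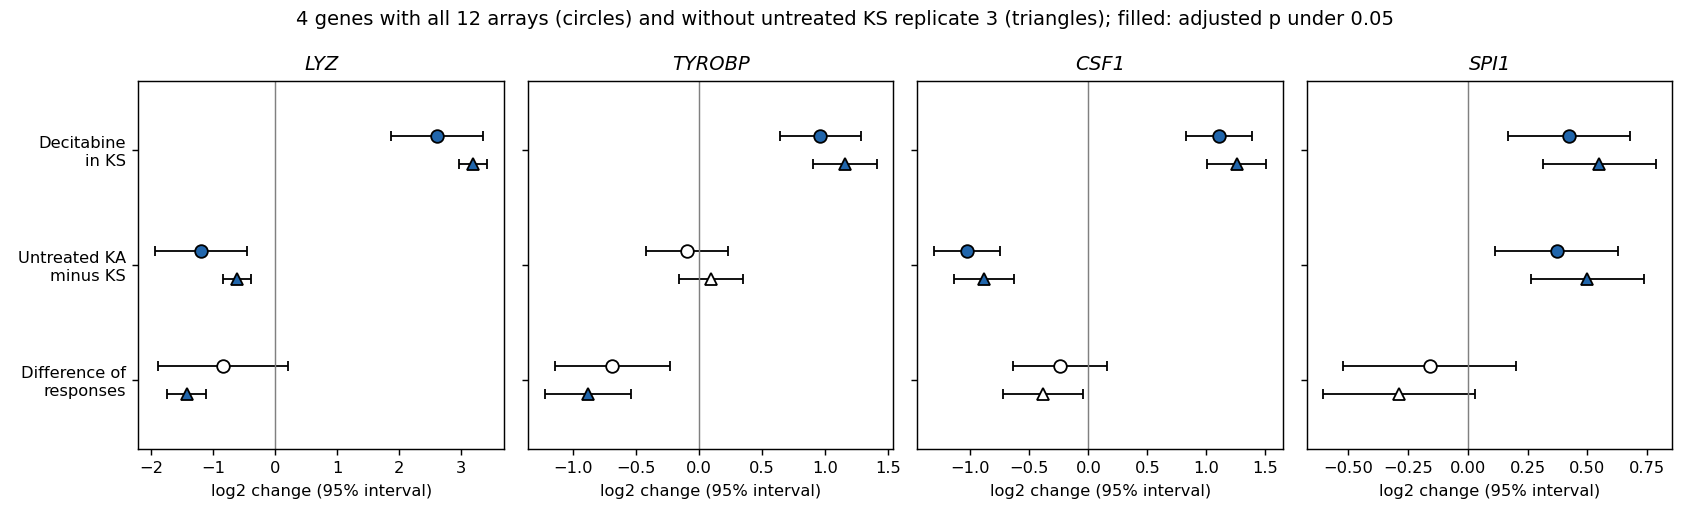
Log2 change (horizontal axis, with 95% intervals) of LYZ, TYROBP, CSF1 and SPI1 in 3 comparisons, with all 12 arrays (circles) and without untreated KS replicate 3 (triangles). Filled points passed an adjusted p under 0.05. The LYZ response in KS moves to 3.19 and its difference of responses becomes filled at -1.42.

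Other genes of the myeloid programme are given from 6 lists. The calls named held with any 1 array left out, unless stated. Among 19 measured granule and secreted defence proteins, 5 rose with decitabine in KS (6 without untreated KS replicate 3) and 2 in KA, and none fell. Over all genes 14.6% were called higher and 15.7% lower in KS, and 9.66% higher and 4.96% lower in KA, shares that also stand beside the lists that follow. MS4A3, a membrane protein of granulocyte and monocyte progenitors, read 9.78, 9.82 and 9.91 in treated KA, against 8.06, 8.24 and 8.27 in untreated KA. In KS it read 5.68, 6.06 and 5.83 on treated arrays, against 3.82, 3.62 and 5.00 on untreated arrays. It rose 3.14-fold in KA (1.65 ± 0.26, adjusted p = 0.00135) and 3.26-fold in KS (1.71 ± 0.26, adjusted p = 0.000272), and was 16.5-fold higher in untreated KA than in untreated KS (4.04 ± 0.26, adjusted p = 1.36e-07). With untreated KS replicate 3 left out its rise in KS was 2.13 ± 0.11 and its line difference 4.47 ± 0.11. Its line difference thus ran opposite to that of LYZ.

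CTSS, the lysosomal protease cathepsin S, rose 1.82-fold in KS (0.86 ± 0.14, adjusted p = 0.000378), while both KA groups were not shown to exceed background. Its difference of responses, KA minus KS, passed the threshold with untreated KS replicate 3 left out (-0.72, adjusted p = 0.0308). SRGN, the core protein of granule proteoglycans, rose 1.42-fold in KS (0.51 ± 0.12, adjusted p = 0.00547). Between the untreated lines SRGN was 0.59 ± 0.12 higher in KA (adjusted p = 0.0023). SERPINB1, an inhibitor of elastase, rose 1.22-fold in KA (0.28 ± 0.06, adjusted p = 0.00894). Between the untreated lines SERPINB1 was 0.45 ± 0.06 lower in KA (adjusted p = 0.00012). The other 2 counted in KS were LCN2, a siderophore-binding protein (0.63), and PRG2, the eosinophil major basic protein (0.50). The LCN2 call was lost without treated or untreated KS replicate 1 (adjusted p up to 0.0586), and the PRG2 call with any of 7 arrays left out (up to 0.159). The granule proteases nearest to MPO and ELANE, namely PRTN3, AZU1 and CTSG, were called in none of the 5 comparisons, with changes of -0.37 to 0.25. Without untreated KS replicate 3, PRTN3 was called with decitabine in KS (0.29, adjusted p = 0.0399) and in the difference of responses (-0.47, adjusted p = 0.0422).

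Of 21 measured ITAM receptors, kinases and substrates, 7 rose and 4 fell with decitabine in KS (7 and 3 without untreated KS replicate 3), where 30.3% of all genes were called. In KA 3 rose and 1 fell, where 14.6% were called. SYK, the kinase that binds ITAMs of TYROBP and FCER1G, read 4.34, 4.40 and 4.42 in treated KA and 4.55, 4.48 and 4.51 in untreated KA. In KS it read 5.47, 5.41 and 5.58 on treated arrays, against 5.96, 5.97 and 6.01 on untreated arrays. It was 2.76-fold lower in untreated KA than in untreated KS (-1.46 ± 0.07, adjusted p = 4.88e-09) and fell by 0.49 ± 0.07 with decitabine in KS (adjusted p = 9.76e-05). In KA its change was -0.13 ± 0.07 (adjusted p = 0.225). SYK thus fell in the line in which its adaptor TYROBP rose.

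VAV1, an exchange factor downstream of SYK, rose 1.74-fold in KS (0.80 ± 0.12, adjusted p = 0.000244), and its difference of responses passed the threshold with untreated KS replicate 3 left out (-0.50, adjusted p = 0.00654). PTPN6, the phosphatase SHP-1 that damps ITAM signals, rose 1.54-fold in KS (0.62 ± 0.08, adjusted p = 9.3e-05) and 1.47-fold in KA (0.55 ± 0.08, adjusted p = 0.000933). GP6, a platelet collagen receptor that pairs with FCER1G, fell by 0.55 ± 0.10 in KS (adjusted p = 0.00097) and was 2.33-fold higher in untreated KA than in untreated KS (1.22 ± 0.10, adjusted p = 1.53e-06). FCGR2A, an Fc receptor with an ITAM of its own, was 1.59-fold higher in untreated KA (0.67 ± 0.10, adjusted p = 0.000259). FCGR2B, the inhibitory receptor, rose 1.70-fold with decitabine in KA (0.76 ± 0.13, adjusted p = 0.00263). In KS both rose with decitabine, FCGR2A by 0.39 (adjusted p = 0.00881) and FCGR2B by 0.45 (adjusted p = 0.0218). The FCGR2B call in KS was lost without treated KS replicate 1 or 3 (adjusted p up to 0.0721). LCP2, the adaptor SLP-76, was 1.69-fold higher in treated KA than in treated KS (0.76 ± 0.10, adjusted p = 6.24e-05). In KA, VAV1 also rose (0.49) and LYN, a kinase that phosphorylates ITAMs, fell (-0.22). The VAV1 call in KA was lost without treated KA replicate 3 or untreated KA replicate 2 (adjusted p up to 0.0609), and that of LYN with any of 9 arrays left out (up to 0.14). LYN also fell with decitabine in KS (-0.40, adjusted p = 0.000448). It was lower in untreated KA than in untreated KS (-0.36, adjusted p = 0.000992). FCGR2A and FCGR2B are close paralogs, so signal could be shared between their probes.

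Among 11 measured colony-stimulating factors and receptors, 3 rose in KS and 1 in KA (9.09%, against 9.66% of all genes called higher), and none fell with decitabine. KIT, the stem cell factor receptor, read 6.50, 6.45 and 6.48 in treated KA, against 5.35, 5.50 and 5.43 in untreated KA, and rose 2.07-fold (1.05 ± 0.15, adjusted p = 0.000893). In KS it read 7.58, 7.80 and 7.90 on treated arrays, against 6.16, 5.82 and 6.61 on untreated arrays, and rose 2.96-fold (1.56 ± 0.15, adjusted p = 1.32e-05). It was 1.70-fold lower in untreated KA than in untreated KS (-0.77 ± 0.15, adjusted p = 0.00206). With untreated KS replicate 3 left out its change in KS was 1.77 ± 0.11 and its difference of responses, KA minus KS, was called (-0.72 ± 0.15, adjusted p = 0.0123). IL34, the other ligand of CSF1R, rose 1.22-fold in KS (0.28 ± 0.08, adjusted p = 0.0165). That call was lost without treated KS replicate 2 or untreated KS replicate 1 or 2, with adjusted p up to 0.0687. The third gene counted in KS was CSF3R, the receptor of granulocyte colony-stimulating factor (0.50), whose call was lost without treated KS replicate 1 or 3 or untreated KS replicate 2 (adjusted p up to 0.0634).

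Of 12 measured myeloid transcription factors, 3 rose and 2 fell in KS (4 and 2 without untreated KS replicate 3), and 1 rose in KA, against 30.3% of all genes called in KS and 14.6% in KA. ETS2, an ETS family factor, fell by 0.86 ± 0.07 in KS (adjusted p = 7.17e-06) and changed by -0.09 ± 0.07 in KA (adjusted p = 0.423). Between the untreated lines ETS2 was 0.44 ± 0.07 lower in KA (adjusted p = 0.000383). Among the relatives of CEBPA, CEBPG fell by 0.39 ± 0.09 in KS (adjusted p = 0.00635) and was the gene counted in KA, where it rose by 0.37. That KA call was lost without treated KA replicate 2 or 3 or untreated KA replicate 1 or 3 (adjusted p up to 0.082). CEBPG was 1.01 higher in treated KA than in treated KS (adjusted p = 3.87e-06). CEBPE, a factor of granulocyte maturation, rose 1.27-fold in KS (0.34 ± 0.09, adjusted p = 0.00795). CEBPB, a factor of macrophage activation, was 1.43-fold higher in untreated KA than in untreated KS (0.52 ± 0.08, adjusted p = 0.000305) and was not called with decitabine in either line. BATF3, a bZIP factor, was 1.44-fold higher in untreated KA than in untreated KS (0.53 ± 0.11, adjusted p = 0.00262). CEBPD was 0.34 ± 0.07 lower in treated KA than in treated KS (adjusted p = 0.00335). Its change of 0.18 with decitabine in KS was not called (adjusted p = 0.0864), but was called after quantile normalization and without untreated KS replicate 3 (0.24, adjusted p = 0.0284). GFI1, a repressor needed by granulocyte precursors, rose 1.40-fold in KS (0.49 ± 0.09, adjusted p = 0.000929). RUNX1, a factor of blood stem cells and megakaryocytes, was the third to rise in KS (0.33), a call lost without treated KS replicate 2 or 3 or untreated KS replicate 1 or 2 (adjusted p up to 0.106).

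Of 21 measured genes from the list of monocyte and macrophage surface proteins, 5 rose in KS and 4 in KA. Over all genes 14.6% were called higher in KS and 9.66% in KA. None of the 21 fell with decitabine when all arrays were used. The list is broader than its name, since AIF1 and CD68, described below, lie mainly inside the cell. When untreated KS replicate 3 was left out, 7 rose in KS, and 5 rose and 1 fell in KA. ANPEP, the aminopeptidase CD13, rose 2.17-fold in KA (1.11 ± 0.11, adjusted p = 7.94e-05) and 1.47-fold in KS (0.56 ± 0.11, adjusted p = 0.00153). AIF1, an actin-binding protein of macrophages, rose 1.82-fold in KA (0.87 ± 0.15, adjusted p = 0.00295) and 1.68-fold in KS (0.75 ± 0.15, adjusted p = 0.00226). CD68, a lysosomal glycoprotein, was 1.86-fold higher in untreated KA than in untreated KS (0.90 ± 0.11, adjusted p = 4.28e-05) and rose 1.43-fold in KS (0.52 ± 0.11, adjusted p = 0.00245). In KA its change of 0.34 ± 0.11 just missed the threshold (adjusted p = 0.0501), and it was called under 6 of 8 other settings and without untreated KS replicate 2 or 3. The partners of CD14 in lipopolysaccharide sensing, TLR4 and LY96, were not shown to exceed background in any group, although LY96 counts among those called higher in both lines. Also counted were ITGAM, an integrin of phagocytes, in KS (0.35; lost without treated KS replicate 2 or untreated KS replicate 1, adjusted p up to 0.0694) and ADGRE1 in KA (0.36; lost with any of 9 arrays left out, up to 0.175). The LY96 call in KA was lost with any of 8 arrays left out (up to 0.171). Of 4 measured phagocyte oxidase genes, 1 rose in KA and none in KS: RAC2, the GTPase of the complex, rose 1.38-fold in KA (0.47 ± 0.07, adjusted p = 0.000833). Between the untreated lines RAC2 was 0.35 ± 0.07 lower in KA (adjusted p = 0.00173), and CYBB was 0.28 ± 0.08 higher (adjusted p = 0.0218). The CYBB call was lost without untreated KA replicate 2 or 3 or untreated KS replicate 2 (adjusted p up to 0.0818).

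**Figure D4:**
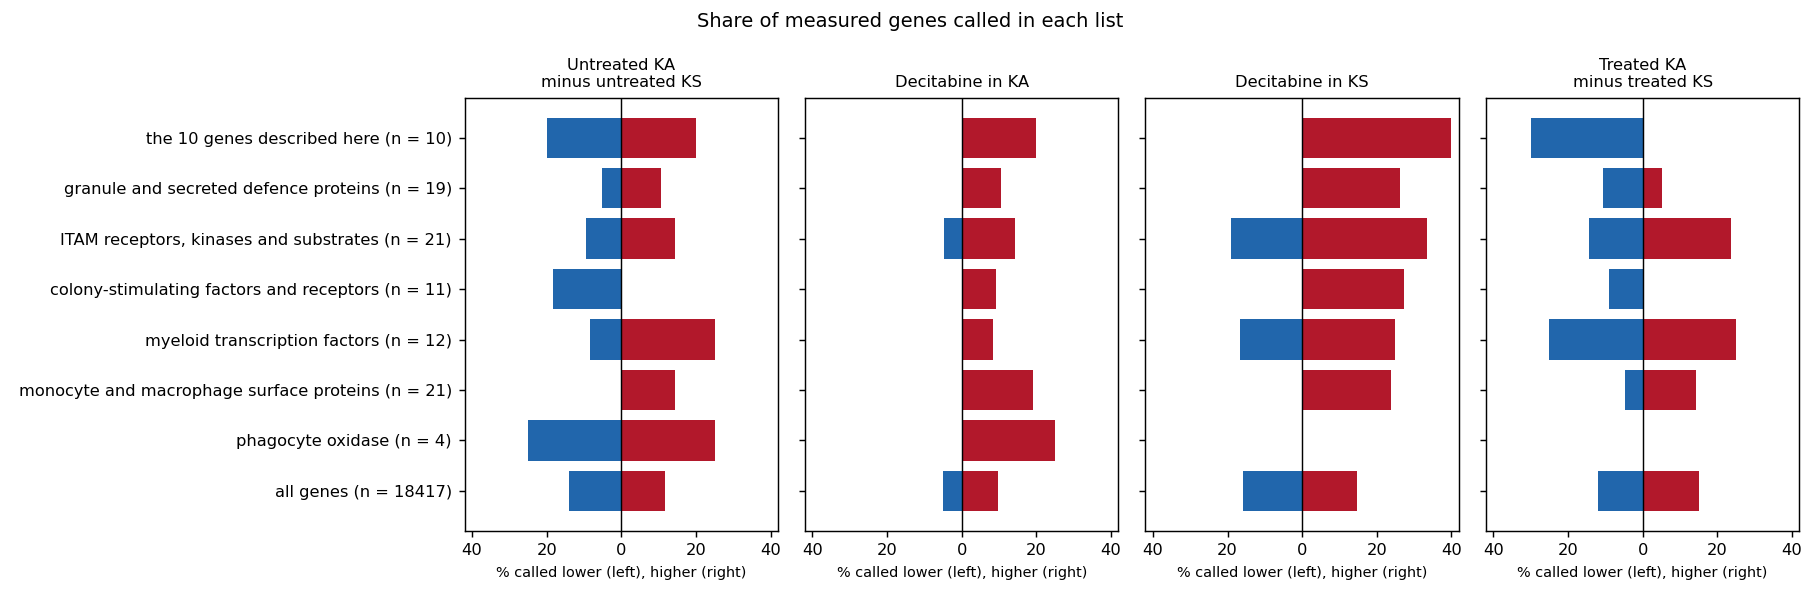
Share of measured genes called lower (blue, left) and higher (red, right) in each list, in the 4 comparisons between groups (horizontal axis in percent). The bottom row is all 18417 genes. The 10 genes described here reach 40.0% called higher with decitabine in KS, where all genes reach 14.6%.

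With decitabine 7 of 13 measured erythroid and megakaryocyte markers rose in KS and none fell, where 14.6% of all genes were called higher. When untreated KS replicate 3 was left out, 7 rose and 1, TFRC, fell. In KA 2 rose and 1 fell, where 9.66% of all genes were called higher, and the median change of the 13 was 0.0060, against 0.18 in KS. Their summed log2 level ran from 110.2 to 111.2 on treated KS arrays, against 105.0 to 107.2 on untreated KS arrays, and from 111.1 to 111.2 on treated KA arrays, against 108.8 to 109.0 on untreated KA arrays. Much of both shifts in the sum came from ALAS2 and ITGA2B. ALAS2, the erythroid enzyme of haem synthesis, rose 5.52-fold in KS (2.47 ± 0.31, adjusted p = 6.98e-05), or 8.01-fold without untreated KS replicate 3. In KA it read 9.92, 9.91 and 9.97 on treated arrays, against 8.94, 8.94 and 8.90 on untreated arrays. That rise of 1.01 (adjusted p = 0.0464) lost its call with any of 9 arrays left out. Without untreated KS replicate 3, which enters the shared spread, its adjusted p was 2.1e-05. The ALAS2 difference of responses was -1.46 (adjusted p = 0.068), and -1.99 without that untreated KS array, which was called (adjusted p = 1.19e-05). ITGA2B, a platelet integrin, rose 2.80-fold in KA (1.49 ± 0.09, adjusted p = 9.63e-06) and 1.98-fold in KS (0.99 ± 0.09, adjusted p = 1.25e-05). Of 13 measured lymphoid markers none was called with decitabine in either line, and their summed level ran from 52.8 to 54.9 on treated KS arrays, against 53.4 to 55.4 on untreated KS arrays. Of 25 measured markers of non-haematopoietic tissues, 2 rose and 1 fell in KS and 2 rose in KA. The part of erythroid markers in the myeloid results was not tested.

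**Figure D5:**
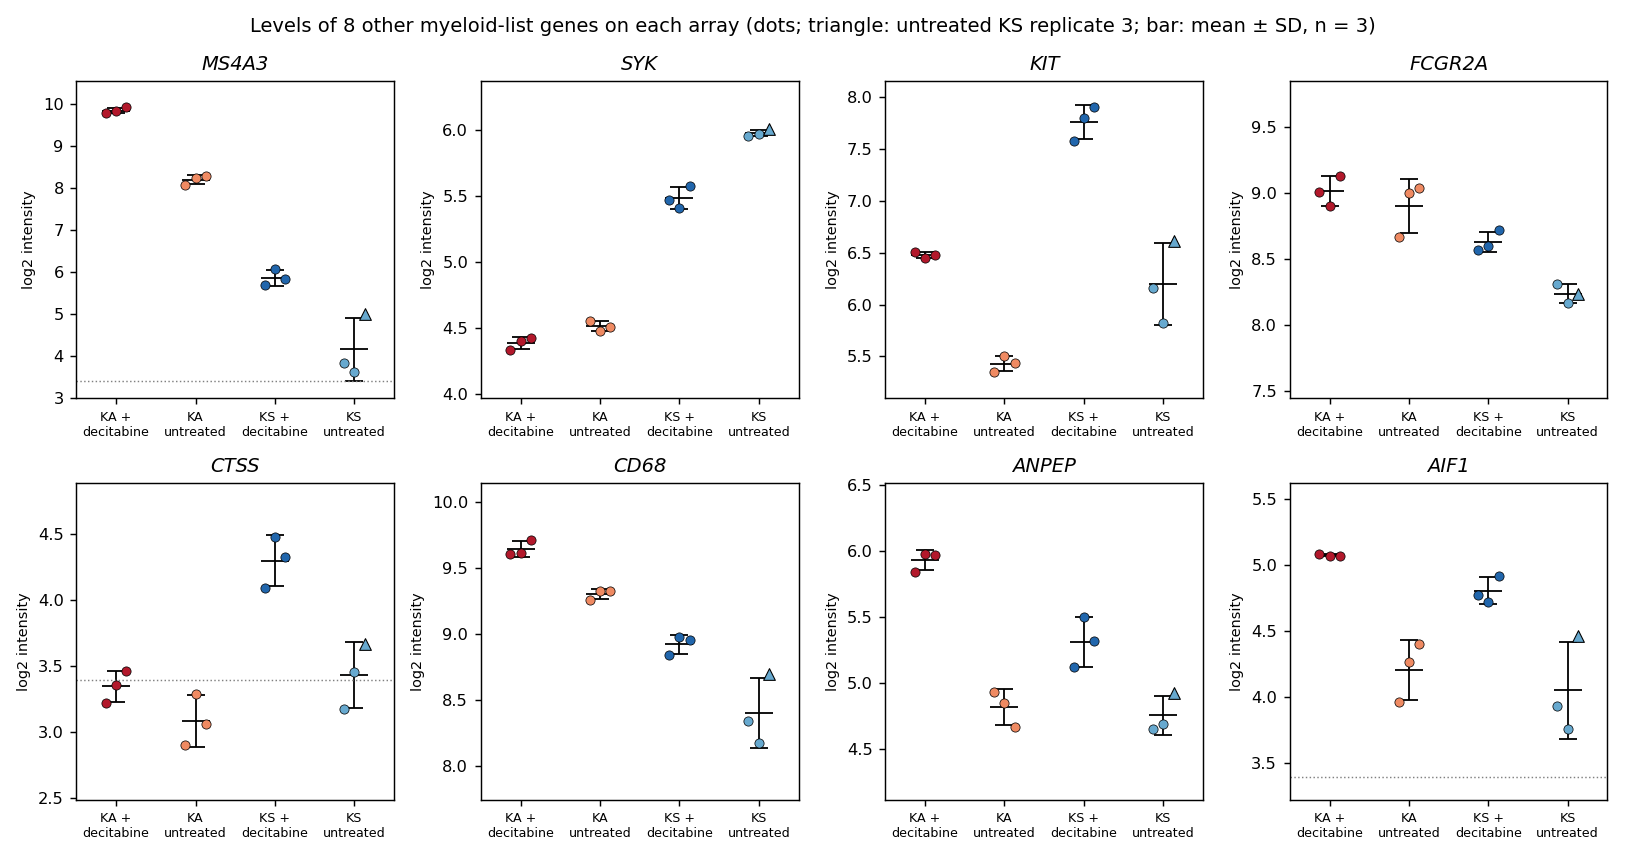
Log2 intensity of 8 genes from the other myeloid lists on each array (vertical axis) in the 4 groups (horizontal axis). Dots are arrays, the triangle is untreated KS replicate 3, black bars are the mean ± SD (n = 3) and the dotted line, where it falls within a panel, is the background level of 3.39. MS4A3 is highest in KA, SYK is lowest in KA, and KIT is raised by decitabine in both lines.

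The genes whose profile over the 12 arrays lay closest to that of LYZ, by root mean square difference of centred levels, were AQP1 (0.389), TSPAN7 (0.460), PGLYRP4 (0.469), NXF3 (0.469) and ITGB3 (0.477). AQP1, a water channel of red cells, averaged 8.46 in treated KA, 6.87 in untreated KA, 10.16 in treated KS and 7.16 in untreated KS. PGLYRP4 is a peptidoglycan recognition protein and ITGB3 an integrin of platelets. Closest to TYROBP were PABIR3 (0.120), P2RX6 (0.130), PGC (0.134), FPR3 (0.135), a formyl peptide receptor of phagocytes, and GRN (0.141), which encodes progranulin. FPR3 averaged 5.01 in treated KA, 4.89 in untreated KA, 5.85 in treated KS and 4.88 in untreated KS. Closest to CSF1 were TENT5C (0.117), CMPK2 (0.164), CAPRIN2 (0.172), DES (0.184) and ARHGAP42 (0.190). TENT5C, a poly(A) polymerase, averaged 7.21 in treated KA, 6.43 in untreated KA, 8.62 in treated KS and 7.46 in untreated KS.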

How the data were processed

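Log2 intensities deposited by the authors for 12 arrays were used with no further scaling. Background correction, summarization and normalization before deposit are not given in the sources used here. The platform annotation gives 1 gene symbol to 19460 of 33297 transcript clusters, several to 1754 and none to 12083, and 19429 of those with 1 symbol matched a RefSeq gene. For each of 18417 genes the brightest cluster was taken. Each of the 10 genes has 1 cluster, so no choice between clusters was made for them.

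A model of 4 group means was fitted to all 12 arrays with limma 3.58.1 under R 4.3.3, using moderated variances and Benjamini-Hochberg adjustment, and the script was tested on simulated data. An exact permutation test of 3 against 3 arrays cannot go below p = 0.1, so it was not used, and the number of arrays limits the precision. The 10 genes, the lists and their rules were chosen with earlier results of these data known, so counts and medians are descriptions with no list test. In each list up to 5 called genes with the largest change were named per comparison, besides fixed partners, although some called list genes within that rule were left unnamed after their values were seen. Alternatives were quantile normalization, median centring, a replicate block, trended and robust moderation, a filter on low values, all clusters, the compared groups alone, another background level and each array left out. The deposited table has no detection p-values.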

Additional observations from a re-analysis of the deposited data

Results flagged for a closer look

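For 7 of 88 measured genes of the other myeloid lists (7.95%, against 6.74% of all genes) the response to decitabine differed between the lines by the interaction term of the fit, given as KA minus KS. ETS2 differed by 0.77 ± 0.10 (adjusted p = 0.00222) and CEBPG by 0.76 ± 0.13 (adjusted p = 0.00809), and both calls held with any 1 array left out. ETS2 averaged 6.86 in treated KA and 6.95 in untreated KA, against 6.53 in treated KS and 7.39 in untreated KS. CEBPG averaged 7.95 in treated KA and 7.58 in untreated KA, against 6.94 in treated KS and 7.33 in untreated KS.

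The other 5 calls depended on single arrays. GFI1 differed by -0.56 ± 0.12 (adjusted p = 0.0205) and CEBPE by -0.52 ± 0.12 (adjusted p = 0.0256), and each lost its call with 4 of 12 arrays, adjusted p reaching 0.0542 for GFI1 and 0.0623 for CEBPE. SYK differed by 0.37 ± 0.09 (adjusted p = 0.0343) and lost its call with 10 of 12 arrays, adjusted p reaching 0.0902. ANPEP differed by 0.56 ± 0.15 (adjusted p = 0.0476) and RAC2 by 0.34 ± 0.09 (adjusted p = 0.0484), and each lost its call with 11 of 12 arrays, adjusted p reaching 0.0999 for ANPEP and 0.112 for RAC2.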

How the results depend on the processing

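Of the results recomputed under the alternatives, 934 values kept direction and side of the threshold, 18 lost a call, 6 gained one and 27 changed sign. The causes were not tested. LYZ between untreated lines lost its call with trended and robust moderation (-1.20, adjusted p = 0.0675) and with the compared groups alone (-1.20, adjusted p = 0.0762). With single arrays left out it ran from -1.51 to -0.61, its response from 1.69 to 1.88 in KA and from 2.30 to 3.19 in KS, the treated lines from -2.09 to -2.00, and the difference of responses from -1.42 to -0.52. Of the 10 genes, 1 to 5 were called between untreated lines with single arrays left out (1 without untreated KA replicate 1; 2 without untreated KA replicate 2 or untreated KS replicate 1 or 2; 4 with all), and 2 with the compared groups alone. In the difference of responses 0 to 2 were called with single arrays left out (2 without untreated KS replicate 3), and 1, TYROBP, with trended and robust moderation. With the alternative background level of 4.43, the median untreated level of non-haematopoietic markers, 3 of the 10 genes lay at or below it in all groups, against 1. These 3 were FCER1G, CD14 and MPO, and the 1 was FCER1G. The SPI1 call between untreated lines was lost with all clusters tested and with the compared groups alone (0.37 each), and its KS response with the compared groups alone (0.42), which gave a call in KA (0.26).

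Sign changes were of values that were not called. Median centring gave -0.0073 for the CSF1R response in KS, 0.0072 for MPO between treated lines, -0.0017 for CEBPA between untreated lines and 0.0008 for CEBPA in the difference of responses. Quantile normalization gave 0.0163 for MPO and 0.0092 for CEBPA between treated lines, and 0.0063 for CEBPA in the difference of responses. With single arrays left out, TYROBP ran from -0.22 to 0.10, CSF1R from -0.15 to 0.0635 and CEBPA from -0.14 to 0.094 between untreated lines. MPO ran from -0.0798 to 0.0841 and CEBPA from -0.0886 to 0.0331 between treated lines, the CSF1R response in KS from -0.059 to 0.083 and the CEBPA response in KA from -0.0331 to 0.20. In the difference of responses FCER1G ran from -0.10 to 0.19 and CEBPA from -0.12 to 0.12.

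Over all genes the difference of responses had 847 higher and 394 lower calls, 611 and 522 after quantile normalization, 1918 in all with trended and robust moderation, 495 and 283 with the replicate number as a block, and 564 to 2049 in all with single arrays left out (2049 without untreated KS replicate 3). Decitabine in KA had 2694 calls, and 1653 to 1725 without treated KA replicate 3 or untreated KA replicate 1 or 2. Same-numbered arrays did not pair: correlations of their deviations from group means ran from -0.26 to 0.19, and 0 to 2 of 6 arrays per comparison correlated best with their own number. With the replicate block SPI1 between untreated lines lost its call (0.37, adjusted p = 0.0574), and no other call of the 10 genes changed. The difference of responses has no fit with the compared groups alone, since it needs all 4 groups.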
